A study of Mus musculus with 2 samples.

Results

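The genes described here are 40 mouse genes that activate fatty acids, carry them into mitochondria and break them down by beta-oxidation, with the enzymes that control or branch from this route. They were chosen by symbol from a list of the pathway, and all 40 were found among the 55536 annotated genes of the tables, of which 22015 are protein-coding and lie outside the mitochondrial genome. The rule names genes and uses no measured value, but the list was drawn up with earlier results of these data known, so its levels beside those of other genes are a description.

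Total RNA was sequenced from the hearts of female B6CASTF1/J mice aged 14 days, the F1 cross of the strains C57BL/6J and CAST/EiJ, as 2 libraries (replicates 1 and 2) of 1 group. The input of each library was 300 ng, and ERCC standards for stranded, ribosome-reduced libraries were added. Both libraries carry the same donor label and a description that can be read as a pool of 3 females, while the tissue labels name different animal numbers, so the SD given here is between libraries and may be technical. The libraries held 36404376 and 34569708 expected counts, and where a gene is followed by a pair of values, replicate 1 is given before replicate 2. With 1 group there is no comparison of conditions and no test across samples, and what can be set side by side is the isoenzymes of each step, within each library.

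Fatty acids are the main fuel of the heart after birth, when they take over from glucose and lactate. A long-chain fatty acid is joined to coenzyme A, moved across the inner mitochondrial membrane on carnitine, and shortened by repeated rounds of dehydrogenation, hydration, a second dehydrogenation and thiolysis. Several of these steps have isoenzymes that differ in chain length, organelle or tissue, and malonyl-CoA blocks the carnitine step.

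The markers of heart muscle were present. All 5 cardiomyocyte markers (Myh6, Tnnt2, Tnni3, Actc1 and Ryr2) were detected, with a summed level of 23774 TPM in replicate 1 and 24769 TPM in replicate 2. TPM is the abundance of a transcript relative to all transcripts of its library, corrected for length, so that levels can be compared between genes. Endothelial (4 of 4), fibroblast (4 of 4), macrophage (4 of 4) and red blood cell (3 of 3) markers were also at 1 TPM or more, with sums of 239.6 and 234.7, 443 and 431, 35.6 and 32.8, and 24081 and 18475 TPM. Of the skeletal muscle markers 1 of 5 reached 1 TPM, Ckm, which heart also expresses, and none of the 4 liver markers did (sums 0.65 and 1.26 TPM). Of the fat markers, 2 of 4 brown fat genes (Ucp1 and Cidea) and 3 of 4 white fat genes reached it, with sums of 66.3 and 88.6 and of 42.7 and 40.1 TPM. The airway epithelium markers summed to 149.7 TPM in replicate 1 and 10.1 TPM in replicate 2 (3 of 4 at 1 TPM or more).

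The fatty acid genes were abundant transcripts of this tissue. Together they held 7649 TPM in replicate 1 and 7967 TPM in replicate 2, which is 1.82% ± 0.0517 of the TPM of nuclear protein-coding genes (SD, n = 2). A mean of at least 1 TPM was reached by 39 of the 40 genes (97.5%), against 53.2% of nuclear protein-coding genes. At 10 TPM the shares were 82.5% and 26.2%, and at 100 TPM 50% and 2.64%. The median was 105 TPM for the 40 genes and 1.55 TPM for all nuclear protein-coding genes. Hadhb, Acaa2, Ech1 and Acadvl stood highest, at ranks 53, 54, 79 and 88 of the nuclear protein-coding genes, and Acsl6 lowest. In bulk tissue, fewer cells of a type and less RNA per cell cannot be told apart.

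**Figure D1:**
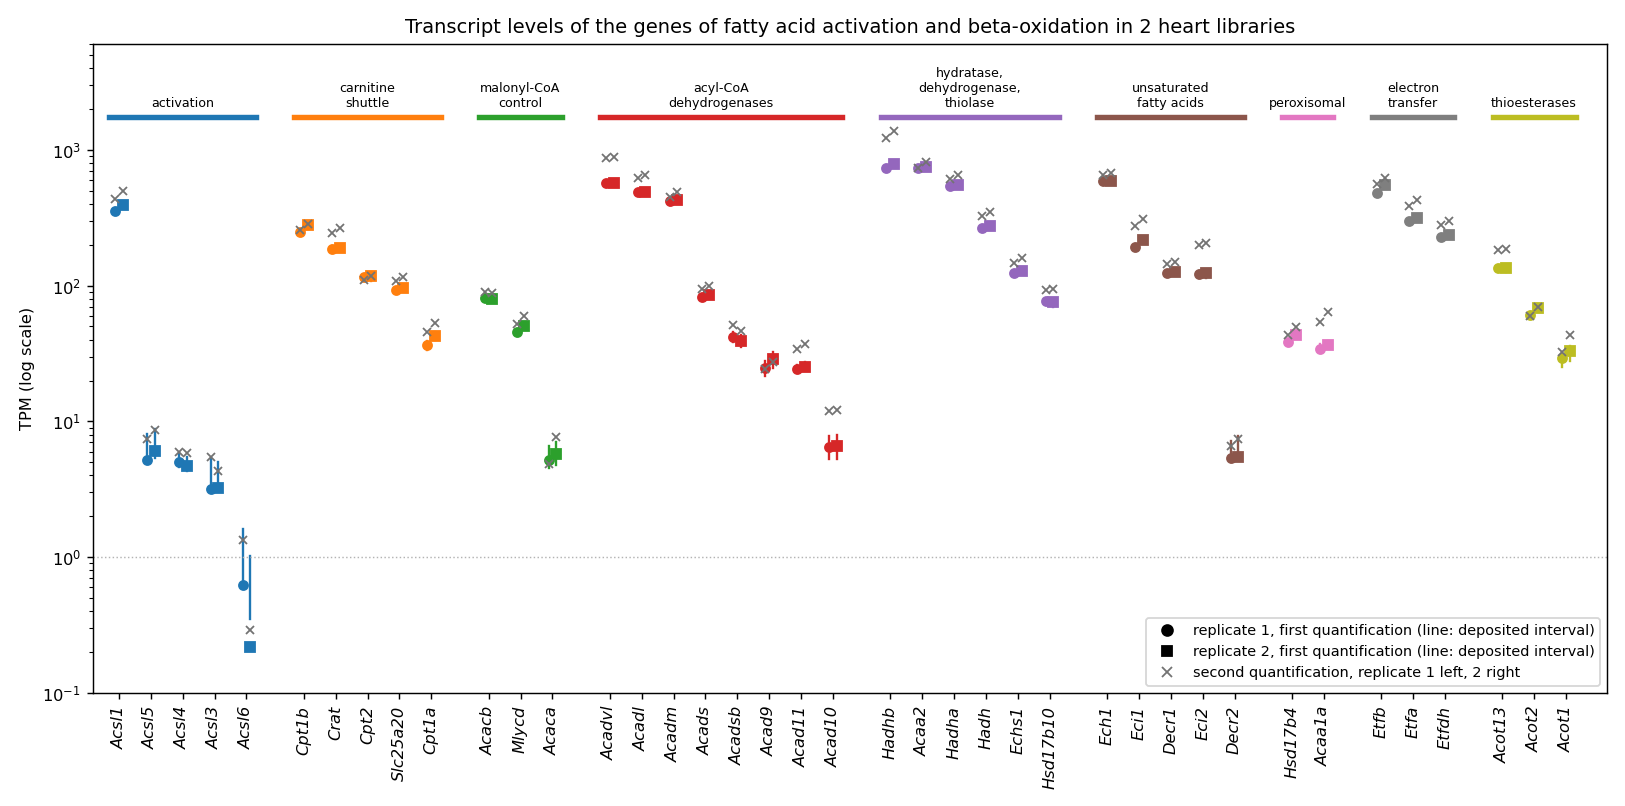
Level of each of the 40 genes in TPM (log axis), grouped by step of the pathway, with 1 filled point per library, the deposited interval as a line and the second deposited quantification as crosses. The interval belongs to the posterior mean TPM and need not hold the TPM itself. Hadhb, at 733 and 781 TPM, has the highest filled points, and Acsl6, at 0.63 and 0.22 TPM, the lowest.

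By summed level, the hydratase, second dehydrogenase and thiolase step held 32.2% of the TPM of the 40 genes, the acyl-CoA dehydrogenases 21.3%, electron transfer 13.5%, and the enzymes for unsaturated fatty acids 13.4%. The carnitine shuttle held 8.97%, activation 4.95%, the thioesterases 2.95%, malonyl-CoA control 1.72% and the peroxisomal members 0.973%. When the 40 genes were ordered by mean TPM, the library ranges of 28 of the 39 neighbouring pairs were apart. The 11 neighbours that overlapped included Hadhb and Acaa2, Hadha and Etfb, Etfb and Acadl, Hadh and Cpt1b, and Echs1 and Decr1, so these cannot be ranked. Ranges that were apart do not settle an order either, because the second deposited quantification turned some round. There Acadvl (873 and 887 TPM) stood above Ech1 (656 and 679 TPM). Likewise, Eci2 (199 and 206 TPM) stood above Decr1 (144 and 150 TPM).

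Of the 5 long-chain acyl-CoA synthetases, 1 held nearly all of the transcripts of the activation step. Acsl1, the main synthetase of heart and fat (chromosome 8, 46471037 to 46536051, mm10), was at 354 TPM in replicate 1 and 391 TPM in replicate 2, with 28448 and 29653 expected counts. Acsl5, known from liver and intestine, had 5.21 and 6.04 TPM, and Acsl4, which prefers arachidonic acid, had 5.02 and 4.66 TPM. Acsl3, an enzyme of lipid droplets and the endoplasmic reticulum, had 3.20 and 3.24 TPM (5.50 and 4.35 TPM in a second quantification of the same libraries that the authors also deposited). Acsl6, the brain form, had 0.63 and 0.22 TPM from 37 and 17 expected counts, and was the 1 gene of the 40 with a mean below 1 TPM, as in the second quantification (1.34 and 0.29 TPM). Acsl1 thus took 96.3% ± 0.233 of the TPM of this step, and 95.9% in the second quantification. Its log2 ratio was 6.05 ± 0.05 over Acsl5, 6.27 ± 0.18 over Acsl4 and 6.85 ± 0.09 over Acsl3 (SD, n = 2). Over Acsl6 it was 9.97 ± 1.18, the widest spread of the 28 pairs compared.

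At the carnitine step the muscle isoform led. Cpt1b, the muscle carnitine palmitoyltransferase of the outer mitochondrial membrane (chromosome 15, 89416405 to 89425863, minus strand), had 249.6 and 277 TPM. Cpt1a, the liver form, which is also prominent in the fetal and newborn rat heart (chromosome 19, 3322334 to 3385733), had 36.6 and 42.65 TPM. Cpt1b was 6.65-fold higher (log2 ratio 2.73 ± 0.05; 2.45 in the second quantification), and Cpt1a held 5.65% of the TPM of the shuttle genes. The coding sequences of the leading transcripts were 67.3% identical over 2297 aligned bases. Their first 60 coding bases are shown because they display how far the isoforms differ where both proteins begin. Capitals mark the 14 bases that differ between the genes (GENCODE M21 on mm10, chr15:89425269-89425328 on the minus strand and chr19:3349202-3349261 on the plus strand).
Cpt1b: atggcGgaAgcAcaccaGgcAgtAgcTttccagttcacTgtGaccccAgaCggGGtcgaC
Cpt1a: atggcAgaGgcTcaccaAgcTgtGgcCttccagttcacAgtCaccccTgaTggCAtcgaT

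The level of Cpt1b carries a limit of annotation. The annotated gene Gm44502 overlaps 81.4% of its exon bases on the same strand, and 79.7% of the 31-base words of Cpt1b also occur there, so the reads were divided by the authors' program. Gm44502 was given 6.13 and 4.10 TPM.

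The partners of Cpt1b were lower. Cpt2, which re-forms acyl-CoA inside the mitochondrion, had 116 and 117 TPM, a log2 ratio to Cpt1b of -1.18 ± 0.10. Slc25a20, the carnitine-acylcarnitine carrier between them, had 92.9 and 95.7 TPM. Its log2 ratio to Cpt2 was -0.30 ± 0.02, but -0.02 in the second quantification, so its place below Cpt2 moved with the quantification. Crat, the carnitine acetyltransferase that buffers acetyl-CoA, had 185 and 189 TPM and stood above Cpt2 by a log2 ratio of 0.68 ± 0.01, or 1.17 in the second quantification.

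Of the carboxylases that make malonyl-CoA, the mitochondrial form was the higher. Acacb, which makes malonyl-CoA at the outer mitochondrial membrane, had 81.5 and 78.95 TPM. Acaca, the cytosolic form that feeds fatty acid synthesis, had 5.24 and 5.73 TPM. The difference was 14.6-fold (log2 ratio 3.87 ± 0.12; 3.86 in the second quantification). Mlycd, the decarboxylase that removes malonyl-CoA, had 45.9 and 50.7 TPM and was below Acacb by a log2 ratio of -0.73 ± 0.13. Of the 31-base words of Acaca, 31.7% also occur in Gm5182, and its counts were divided between features.

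The acyl-CoA dehydrogenases open each round, and those for long and medium chains held most of the step. Acadvl, the very-long-chain enzyme of the inner membrane, had 565 and 571 TPM. Acadl, the long-chain enzyme of mouse heart, had 492 and 488 TPM. Acadm, the medium-chain enzyme, had 418 and 429.7 TPM. These took 34.1%, 29.4% and 25.5% of the TPM of the 8 dehydrogenases, and their levels lay apart in both libraries (log2 ratio of Acadm to Acadl -0.21 ± 0.04). Acads, the short-chain enzyme, had 82.0 and 85.8 TPM, so that Acadm stood above it by a log2 ratio of 2.34 ± 0.02.

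The order of the leading pair was not stable to how transcripts were counted. The log2 ratio of Acadl to Acadvl was -0.21 ± 0.02 in whole genes and -0.46 in the second quantification, in which Acadvl was at 873 and 887 TPM. With transcripts annotated as protein-coding only, it averaged 0.027, at -0.0017 in replicate 1 and 0.055 in replicate 2, so the levels were near equal and the libraries differed in sign. Transcripts with no coding label held 17.1% of the TPM of Acadvl, and 43.8% in the second quantification. Dvl2 overlaps 42.9% of the exon bases of Acadvl on the opposite strand, at 3.87 and 3.55 TPM.

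The 4 remaining dehydrogenases were low. Acadsb, the enzyme of short branched chains from isoleucine, had 42.0 and 39.25 TPM, and Acads stood above it by a log2 ratio of 1.05 ± 0.12. Acad9, which also helps to assemble respiratory complex I, had 24.8 and 28.6 TPM and stood below Acadvl, its closest relative here, which was higher by a log2 ratio of 4.42 ± 0.14, or 5.09 in the second quantification. Acad11 had 24.5 and 25.3 TPM and Acad10 6.43 and 6.55 TPM (log2 ratio 1.94 ± 0.02). Acad10 had 11.99 and 12.09 TPM in the second quantification. Of the 31-base words of Acad10, 22.9% also occur in Acad12.

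The middle and last steps were the most abundant. Hadha and Hadhb encode the alpha and beta subunits of the trifunctional protein, which hydrates, oxidises and cleaves long chains. Hadhb (chromosome 5, 30155248 to 30184593, plus strand) had 733 and 781 TPM, and Hadha (30118304 to 30155162, minus strand) had 542 and 548 TPM. The log2 ratio of Hadhb to Hadha was 0.47 ± 0.05, and 1.03 in the second quantification. By expected counts, with no correction for length, Hadhb was the lower one, at a log2 ratio of -0.34 (32310 and 32764 counts for Hadhb, 41201 and 41262 for Hadha).

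The genes of these subunits are divergent neighbours with 85 bases between their annotated starts. The stretch is shown because it is the whole of the gap between them (chr5:30155163-30155247, plus strand, RefSeq GRCm38.p6). Capitals mark GGGCGG, the GC box letters, searched on both strands.
Hadha-Hadhb: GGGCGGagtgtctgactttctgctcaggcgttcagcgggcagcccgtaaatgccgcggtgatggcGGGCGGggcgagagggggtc

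In the RefSeq windows of 250 bases before to 50 after a start, found for 33 of the 40 genes, GGGCGG was present for 24 of the 33 (26 of their 36 windows), against 35.7% of 32851 windows in all. AGGTCA, the core letters of nuclear receptor sites, searched on both strands, was present for 6 of the 33 (6 of 36 windows), against 16.3% of windows. The windows in all were not matched to the 33 genes for level. Hadha and Hadhb, with 85 bases between their starts, can share a match. A match is a match of letters only.

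For shorter chains, separate enzymes do this work. Echs1, the short-chain hydratase, had 125 and 128 TPM, and Hadha stood above it by a log2 ratio of 2.11 ± 0.01. With protein-coding transcripts only, the ratio was 0.33, and -0.02 in the second quantification. Hadh, the short-chain hydroxyacyl-CoA dehydrogenase, had 264 and 276 TPM. Hsd17b10, a dehydrogenase that also serves isoleucine breakdown and mitochondrial RNase P, had 77.0 and 75.1 TPM (log2 ratio of Hadh to it 1.83 ± 0.07). With protein-coding transcripts only, that ratio was 1.87, and 3.33 in the second quantification.

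Acaa2, the medium-chain thiolase, had 732 and 751 TPM, close to Hadhb, the long-chain thiolase subunit. Their log2 ratio was -0.03 ± 0.04 and their deposited intervals overlapped, so this was the 1 pair of 28 not called unequal. In the second quantification Acaa2 was the lower, at a log2 ratio of -0.73, with Hadhb at 1209 and 1369 TPM. With protein-coding transcripts only, Acaa2 was the higher in both libraries, at a log2 ratio of 0.39.

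**Figure D2:**
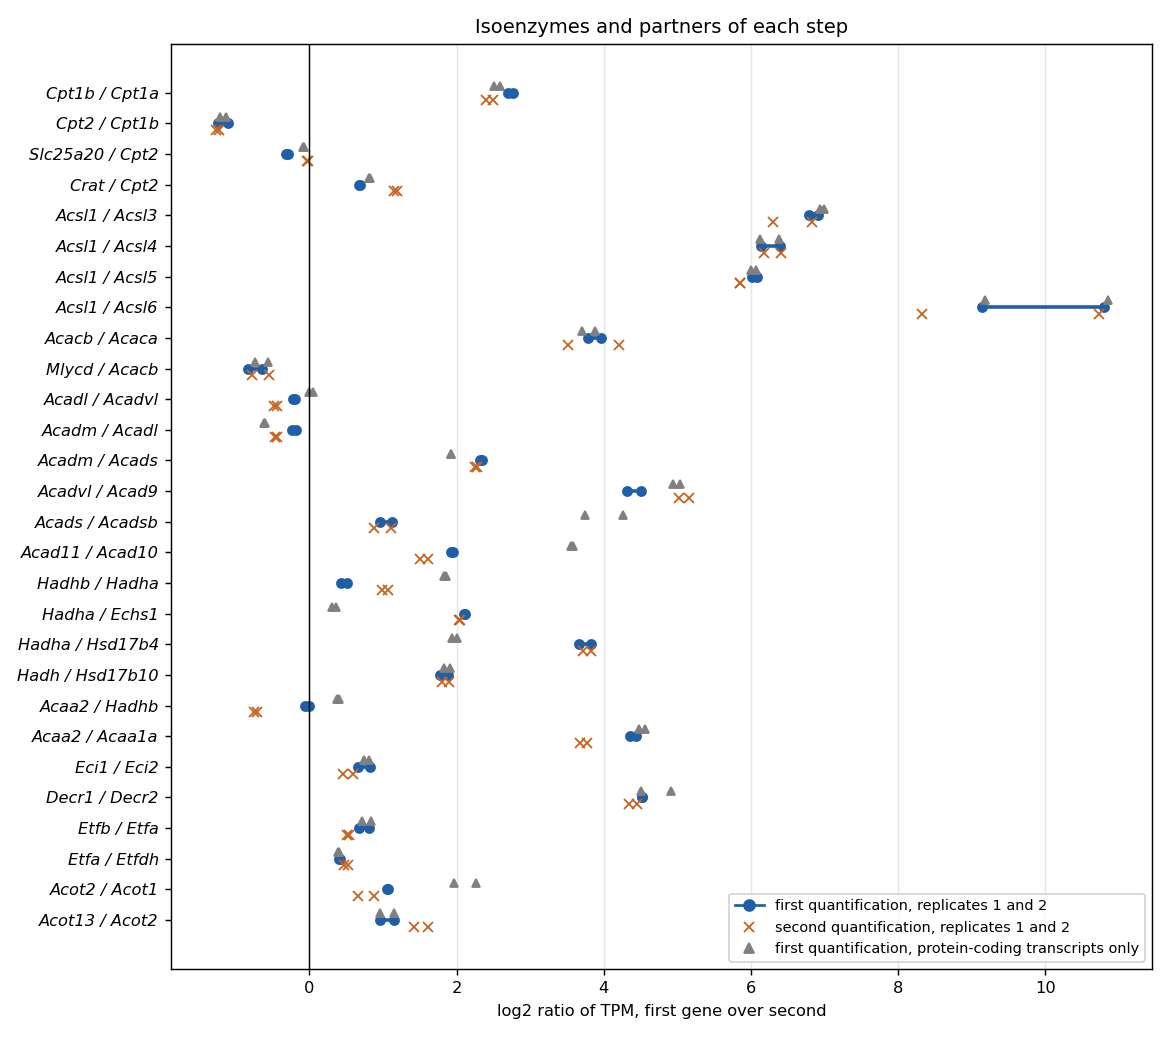
Log2 ratio of TPM, first gene over second, for the 28 pairs of isoenzymes or partners, with 1 point per library, the second quantification as crosses and protein-coding transcripts only as triangles. Of the 28, 22 had the first gene above the second in each library, and the median SD between libraries was 0.05, against a median shift of 0.23 with the other quantification.

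Unsaturated fatty acids need extra isomerases and a reductase. Ech1, the dienoyl-CoA isomerase, had 589 and 591 TPM and held 56.3% of the TPM of these 5 genes. Eci1, an enoyl-CoA isomerase, had 193 and 218 TPM, and Eci2, which also acts in peroxisomes, had 123 TPM in each library (log2 ratio 0.74 ± 0.12). Decr1, the mitochondrial dienoyl-CoA reductase, had 124 and 126 TPM, while the peroxisomal Decr2 had 5.42 and 5.49 TPM. In the second quantification Eci2 was at 199 and 206 TPM. The values of Decr1 and Decr2 put the mitochondrial reductase 22.9-fold above the peroxisomal one.

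The peroxisomal members were low beside their mitochondrial counterparts. Hsd17b4, the peroxisomal bifunctional enzyme, had 38.3 and 43.1 TPM, and Hadha stood 13.4-fold above it (log2 ratio 3.74 ± 0.11). Acaa1a, the peroxisomal thiolase, had 33.9 and 36.6 TPM (54.0 and 63.7 in the second quantification), and Acaa2 stood above it by a log2 ratio of 4.40 ± 0.05, or 3.72 in the second quantification. Counts of Acaa1a were divided, and 16.9% of its 31-base words also occur in Acaa1b.

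Electrons from the first step pass to the electron transfer flavoprotein and on to ubiquinone. Etfb, its beta subunit, had 482 and 547 TPM, and Etfa, its alpha subunit, had 301 and 312 TPM (log2 ratio 0.74 ± 0.09). Etfdh, the ubiquinone oxidoreductase, had 228 and 235 TPM, so that Etfa stood above it by a log2 ratio of 0.41 ± 0.0061. By expected counts with no length correction both orders turned round, to -0.091 for Etfb over Etfa and -0.43 for Etfa over Etfdh. Gm45233, at 0.19 and 1.15 TPM, overlaps 53.0% of the exon bases of Etfb on the same strand.

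Thioesterases release free fatty acids from acyl-CoA. Acot13, a mitochondrial thioesterase, had 135 and 134 TPM, Acot2, the mitochondrial type I enzyme, had 61.0 and 68.7 TPM, and Acot1, its cytosolic sister, had 29.3 and 32.8 TPM. Acot13 stood above Acot2 by a log2 ratio of 1.05 ± 0.13 and Acot2 above Acot1 by 1.06 ± 0.0069, or 0.77 in the second quantification. By expected counts the order of Acot13 and Acot2 turned round, to -0.70.

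Acot2 (chromosome 12, 83987861 to 83993873) and Acot1 (84009490 to 84018371) lie 15616 bases apart on the plus strand. Their coding sequences are 95.6% identical over 1236 aligned bases, and 29.9% of the 31-base words of Acot2 also occur in Acot1, so their split is uncertain. Acot2 starts with 127 coding bases before the aligned part, where Acot1 has 4. These are shown because a mitochondrial import signal is found at the start of ACOT2, and the aligned stretch that follows shows the 7 of 60 bases that differ, in capitals (GENCODE M21, plus strand, chr12:83987902-83988028, chr12:83988029-83988088 and chr12:84009514-84009573).
Acot2 start: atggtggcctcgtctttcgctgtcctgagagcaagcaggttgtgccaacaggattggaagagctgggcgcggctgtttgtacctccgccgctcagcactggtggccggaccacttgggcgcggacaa
Acot2: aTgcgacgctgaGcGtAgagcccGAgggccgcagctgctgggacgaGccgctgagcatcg
Acot1: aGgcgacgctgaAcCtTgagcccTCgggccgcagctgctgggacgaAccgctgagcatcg

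In all, expected counts were whole for 28 of the 40 genes and divided with other features for 12. The divided genes shared a median of 23.0% of their 31-base words with other annotated genes, against 0.0977% for the whole ones.

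The transcripts behind these levels were mostly, but not always, coding. Of 32 genes with a mean of at least 10 TPM and more than 1 annotated transcript, 28 had a leading transcript with at least 50% of the gene's TPM, and all 32 had the same leading transcript in both libraries. For 28 of the 32 the second quantification had the same transcript in the lead. The leading transcript of Slc25a20 held 99.3% ± 0.11 of its gene, Hadh-201 99.2% ± 0.01, Cpt1b-201 79.0% ± 1.54 and Cpt1a-201 73.7% ± 1.65, all protein-coding.

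In 3 of the 32 the leading transcript was annotated as non-coding, and in 6 of the 32 in the second quantification, which added Hadhb, Hsd17b10 and Eci2. Hadha-201, a processed transcript, held 64.6% ± 0.38 of the TPM of Hadha, and 74.4% in the second quantification. It holds 92.0% of the 31-base words of the coding sequence of Hadha-205, and reads from those words fit both. With coding transcripts only, Hadha was at 157 ± 6.84 TPM, against 545 ± 4.25 TPM for the whole gene.

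Acadsb stood apart: 87.2% of its TPM, and 89.1% in the second quantification, were in transcripts with no coding label. Acadsb-204 held 42.3% ± 0.55, and it contains 36.3% of the coding words of Acadsb-202. Coding transcripts of Acadsb reached 5.24 ± 1.14 TPM of the 40.6 ± 1.93 TPM of the gene. For Acot1, a processed transcript led with 51.3% ± 7.14 and holds 52.1% of the coding words. Acad10, below 10 TPM, was led by a retained-intron transcript at 54.8% ± 3.07.

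These labels matter for some pairs. With protein-coding transcripts only, the log2 ratio of Acads to Acadsb was 4.00, that of Acad11 to Acad10 3.57 and that of Acot2 to Acot1 2.12. Hadhb over Hadha came to 1.85 and Hadha over Hsd17b4 to 1.97. The ratio of Cpt1b to Cpt1a moved less, from 2.73 ± 0.05 to 2.55, but by more than the spread between libraries.

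The 4 genes with another leading transcript in the second quantification were Crat, Hadhb, Hsd17b10 and Eci2. Hadhb-201 held 42.6% ± 0.25 in the first and 5.58% in the second, where the retained-intron transcript Hadhb-208 led with 53.2%. The gene level of Hadhb also differed, at 757 ± 34.1 TPM in the first and 1289 ± 113 TPM in the second. The leading coding transcript of Hsd17b10 held 96.6% ± 0.68 in the first and 36.4% in the second. That of Eci2 held 49.3% ± 0.58 in the first and 2.43% in the second.

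**Figure D3:**
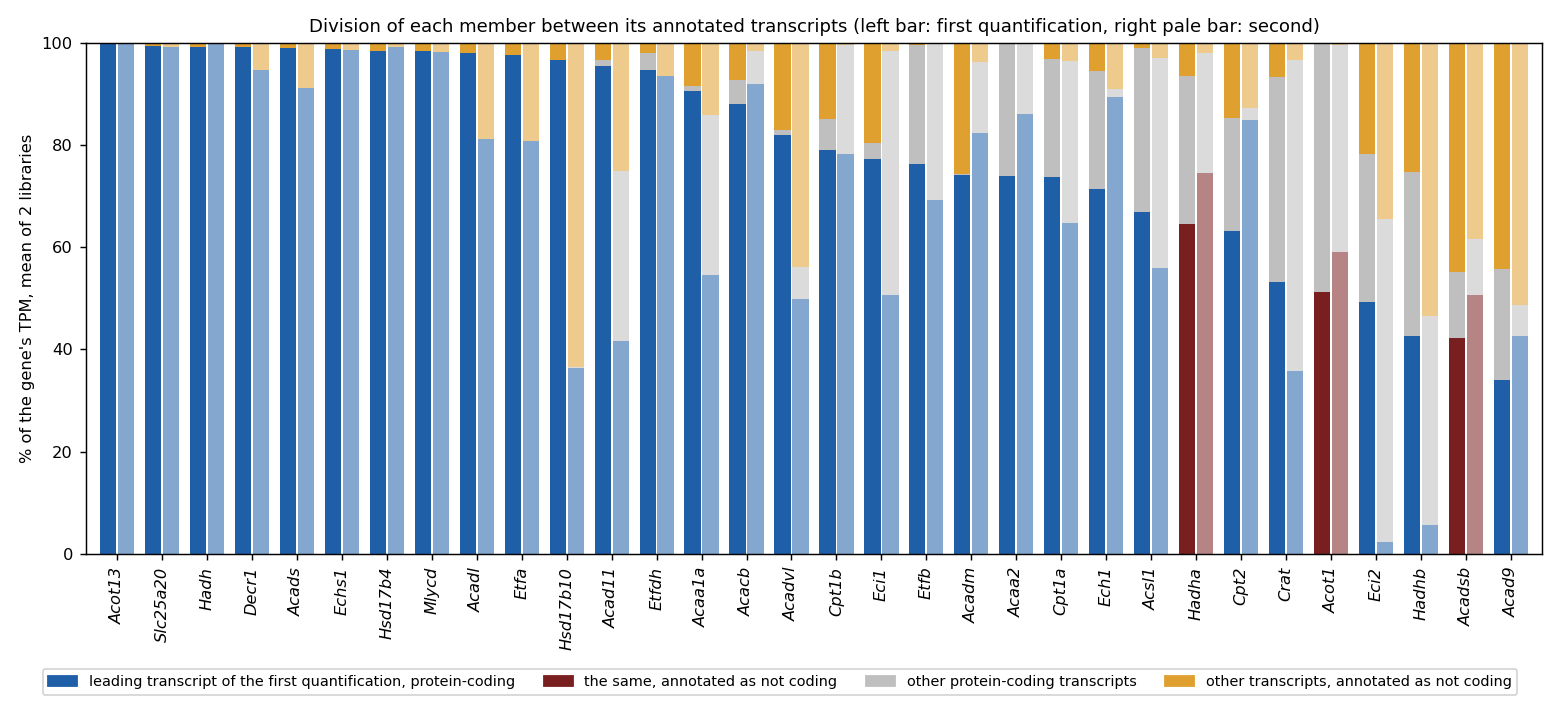
Percent of each gene's TPM in its leading transcript, in other protein-coding transcripts and in transcripts with any other label, mean of the 2 libraries, for the first (left bars) and the second quantification (pale right bars). Dark red marks leading transcripts annotated as not coding. Acadsb and Hadha stand out with 87.2% and 71.1% outside coding transcripts in the first.

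Other genes of the pathway, outside the 40, gave context. Of 17 further peroxisomal genes 15 were at 1 TPM or more (median 5.66 TPM), led by the phytanoyl-CoA hydroxylase Phyh (223.5 and 215.6 TPM) and the sterol carrier and thiolase Scp2 (95.1 and 100.8 TPM). Of 19 further genes of mitochondrial or general acyl-CoA metabolism 18 were (median 17.1 TPM), led by the acyl-CoA binding protein Dbi (139 and 148 TPM), the acetoacetyl-CoA thiolase Acat1 (133 and 132 TPM) and the valine breakdown enzyme Hibadh (80.2 and 81.0 TPM). Of 11 further acyl-CoA synthetases 5 were (median 0.82 TPM), led by the uptake-coupled Slc27a1 (63.3 and 68.7 TPM), Acsf2 (14.9 and 15.6 TPM) and the acetyl-CoA synthetase Acss2 (14.3 and 13.6 TPM). All of these lay below Acsl1.

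Between the libraries the 39 genes with enough counts for a comparison moved little. A gene was called different where log2(TPM + 1) differed by at least 1 after a median difference of -0.03 was removed, its mean expected count was at least 50, and the deposited intervals were apart. None of the 39 genes with enough counts met this, against 0.349% of 12876 genes tested. At 1.5-fold the count was also 0, against 1.65%. With shares this low, a count of 0 among 39 genes is near the background. The median absolute difference was 0.04 for the 39 and 0.11 for all genes tested, but these were not matched to the 39 for counts. Acsl6, at 37 and 17 counts, was below the count minimum. Its counting ratio of replicate 1 over replicate 2 was 2.13, with a 95% exact interval of 1.17 to 4.04.

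Below that size a lean to 1 side was seen. The deposited intervals were apart for 10 of the 39, against 12.1% of all genes tested, which were not matched to the 39 for counts. The lowest mean count was 245 among the 39, against a minimum of 50 for all genes tested. Intervals narrow as counts rise, so the shares of intervals given here are not like for like. All 10 were lower in replicate 1 (background 6.5%) and none was higher (background 5.62%). They were Acsl1, Cpt1a, Cpt1b, Mlycd, Hadhb, Hadh, Eci1, Hsd17b4, Etfb and Acot2. The lowest counting ratios of replicate 1 over replicate 2, scaled by library size, were 0.829 for Acot1 (95% exact interval 0.759 to 0.906) and 0.850 for Cpt1a (0.812 to 0.891). The highest was 1.15 for Acadsb (1.08 to 1.23). These counting intervals excluded a ratio of 1 for 16 of the 39, against 32.5% of genes tested. They lay below 1 for 15, against 15.8%, and above 1 for Acadsb alone, against 16.7%. The difference in log2(TPM + 1) was below 0 for 24 of the 39, against 49.6%. The intervals cover counting error only, and with 1 library on each side no test of the lean was possible.

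**Figure D4:**
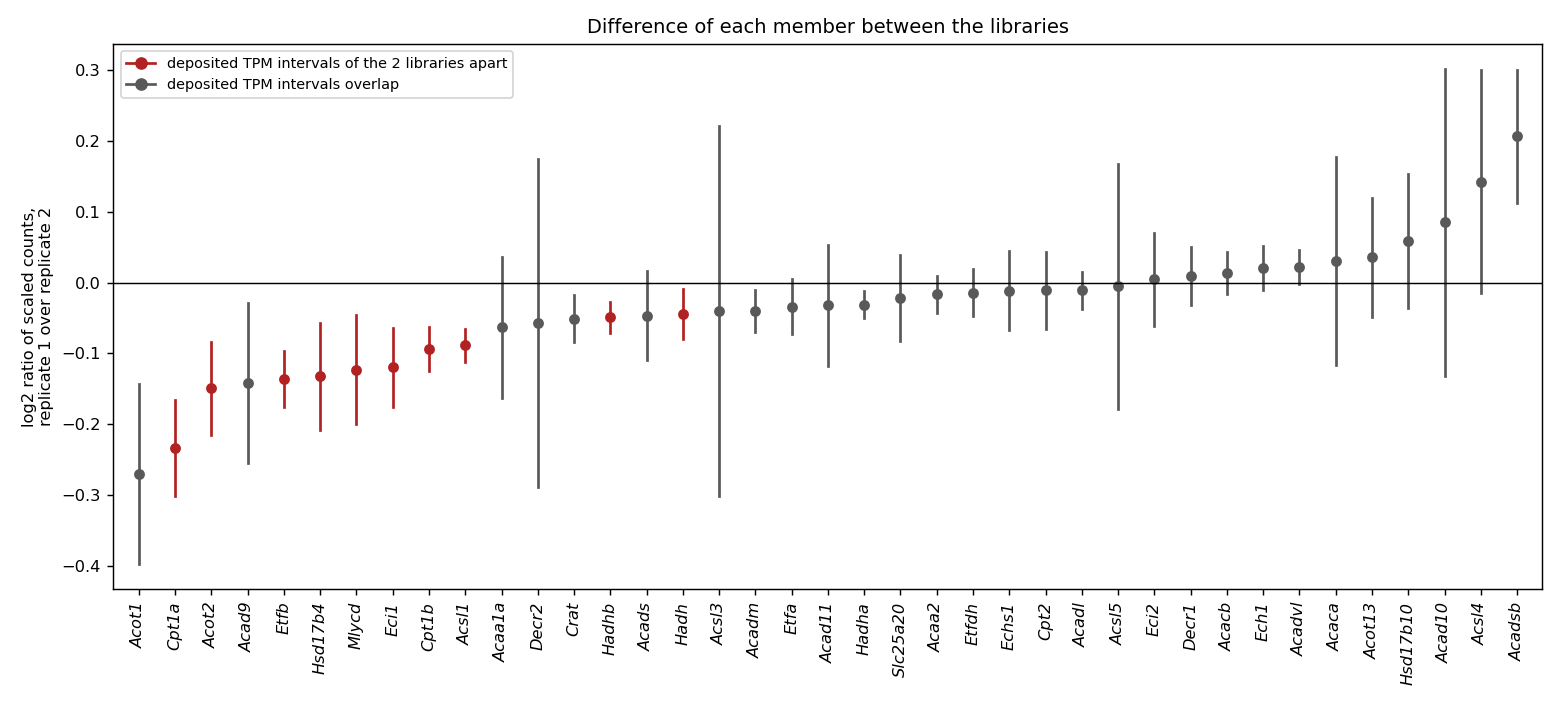
Log2 ratio of replicate 1 over replicate 2 in expected counts scaled by library size, with 95% exact counting intervals as lines, for the 39 genes tested; red marks deposited TPM intervals that are apart. On the linear scale the ratios run from 0.829 for Acot1 to 1.15 for Acadsb, and the 10 whose deposited TPM intervals are apart all lie below 1, which is 0 on the axis.

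Values of other transcripts stand beside this lean. Of 10 genes that respond to fasting and PPAR alpha, 9 were at 1 TPM or more (median 59.0 TPM), and the highest were Fabp3 (2310 and 2531 TPM), Cd36 (734 and 613 TPM) and Pdk4 (246 and 265 TPM). Angptl4, the lipase inhibitor, was the 1 called different, at 8.56 TPM in replicate 1 and 20.5 TPM in replicate 2 (ratio 0.419, interval 0.375 to 0.467). Ucp3, the muscle uncoupling protein, had 20.9 and 37.6 TPM, and Fgf21 had no counts. Ucp1, the brown fat uncoupling protein, had 32.6 and 47.8 TPM, and Cidea 32.5 and 39.9 TPM, with Elovl3 and Dio2 below 1 TPM. Elovl3 had 0.28 and 0.33 TPM. Dio2 was higher in replicate 1, at 0.90 and 0.63 TPM (ratio 1.44, interval 1.11 to 1.88). By log2(TPM + 1), the genes with the largest differences on these lists were higher in replicate 1. By ratio alone, some genes below the count minimum lay further from 1 and were lower in replicate 1, such as Myh1 (0 and 63.3 counts) and Alb (1 and 20 counts). The airway genes Scgb1a1, Scgb3a2 and Cyp2f2 were called different, at 97.6 and 5.96, 41.4 and 2.35, and 10.7 and 0.94 TPM (ratios 16.6, 17.7 and 13.6). The remaining airway marker, Sftpc, was higher in replicate 2, at 0 and 0.85 TPM from 0 and 16 counts. The red blood cell genes Hbb-bs, Hba-a1 and Alas2 had ratios of 1.31, 1.32 and 1.49 and were not called different. The part of any of these genes in the differences between the libraries was not tested.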

How the data were processed

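The 2 libraries form 1 group, so no test between groups was run, and values are mean ± SD over the 2. Per the labels and the deposited readme files, the assembly was mm10 and the annotation GENCODE M21. Aligner, programs and versions: not given in the sources used here. Also unstated is what was done with reads with CAST/EiJ alleles, which could change the counts of genes that differ from mm10.

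The first quantification gives an expected count for every gene and transcript, which the authors' program estimated and left without normalization. Its deposited TPM is corrected for effective length and its total over all rows, spike-ins included, is equal in both libraries. The bounds of the interval of the posterior mean TPM, a score of precision within 1 library per the file headers, stand beside them. Transcript shares are the deposited percent values of that quantification. The second quantification, also deposited by the authors, has estimated counts and TPM for transcripts, which were summed per gene. Its TPM over the first had a median of 1.23 (0.969 to 1.92) for the 40 genes and of 1.19 for nuclear protein-coding genes at 1 TPM or more.

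A pair was called unequal where the TPM ratio had 1 sign in both libraries, the intervals of the genes were apart and the second quantification gave the same sign. Expected counts were called whole within 0.005. Counting intervals are 95% exact Clopper-Pearson intervals scaled by TMM library sizes. A count of 0 allows up to 3 counts. The size cut for differences between libraries and the counting intervals were checked on simulated counts, without the condition on deposited intervals. The other rules were not simulated. Tools were Python 3.11.15, numpy 2.4.6, pandas 2.3.3, scipy 1.17.1, matplotlib 3.10.9, R 4.3.3, edgeR 4.0.16 (TMM) and DESeq2 1.42.0 (size factors), the last 2 for scaling only. All 40 genes are named, and of the other pathway lists the 3 highest and any gene called different, except for 1 item that is not reported here. Cell type markers are given as sums, and those named singly were chosen after their values were seen. The genes, pairs and lists were chosen with earlier results of these data known.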

Additional observations from a re-analysis of the deposited data

How the results depend on the processing

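The share of nuclear protein-coding TPM held by the 40 genes, 1.82%, was 1.74% in the second quantification, 1.63% by expected counts without length correction and 0.788% of all annotated genes, and ranged from 1.78% to 1.85% when either library was left out. The counts of genes at 1 TPM or more (39 to 40), of pairs with the first gene higher (18 to 23), of genes led by 1 transcript (27 to 32) and of genes different between libraries (0 throughout) stayed within 1.5 times. Without length correction, log2 ratios reversed to -0.34 for Hadhb over Hadha, -0.091 for Etfb over Etfa, -0.43 for Etfa over Etfdh and -0.70 for Acot13 over Acot2. With protein-coding transcripts only, an alternative chosen after seeing the data, the mean of Acadl over Acadvl reversed to 0.027 (-0.0017 and 0.055 in the libraries), and Acaa2 over Hadhb, not called unequal before, was 0.39. The second quantification moved 20 of the 28 log2 ratios by more than the spread between libraries, while their signs held. No paired analysis was possible because there is 1 group. Differences between libraries need both, so neither could be left out there. Acsl6, with 37 and 17 counts, was the only one of the 40 below the minimum of 50 expected counts. Transcript shares also varied in other genes with few counts, as for the leading transcript of Decr2 (69.2% and 95.25%).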
